A study of Homo sapiens with 12 samples.

Results

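The 40 genes described here encode factors that build ribosomes in human cells. They were chosen by gene symbol from a list of symbols, and all 40 were found among the 46427 genes of the count table. They fall into 4 box C/D proteins, 4 box H/ACA proteins, 3 nucleolar chaperones and multifunctional proteins, 7 subunits or factors of RNA polymerase I, 10 factors of the small ribosomal subunit and 12 factors of the large one. The cells were HT1080, an established human fibrosarcoma line, transfected with siRNA before total RNA was taken and sequenced as stranded poly(A) libraries. The 4 groups had 3 libraries each: siTRIP12 and siOTUD5 together (siTRIP12+siOTUD5), siTRIP12 alone, siOTUD5 alone, and a scrambled siRNA (Scrambled). TRIP12 is a HECT-type ubiquitin ligase and OTUD5 a deubiquitylase. The labels give neither the siRNA sequences nor their amounts. They do not say whether the libraries of a group came from separate cultures, so the p-values measure the spread between these libraries, which may be technical. In the labels, the number at the end of the cell line's name increases from one sample to the next, whereas the design text gives HT1080 for all.

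Ribosome production starts in the nucleolus, where RNA polymerase I transcribes the long ribosomal RNA precursor. Small nucleolar RNAs bound by box C/D proteins guide methylation of its riboses, and those bound by box H/ACA proteins guide conversion of uridine to pseudouridine. Processing factors then fold and cut the precursor into the RNAs of the small and the large subunit, and export factors accompany both to the cytoplasm. In proliferating tumour cells many of these genes are known as transcriptional targets of MYC, which binds with MAX to the E-box sequence CACGTG.

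The E-box was therefore looked for around the start sites of the members. RefSeq promoters (250 bases before to 50 after an annotated start, GRCh38.p14) were matched for 30 of the 40 members, with the first listed promoter of each gene used. For BYSL, PES1, NPM1 and UBTF this start lies inside the outer coordinates of the gene. The E-box positions of BYSL and PES1 are thus counted from such an internal start. CACGTG, which reads the same on both strands, was present in 12 of the 30 (40%), in 24 of 106 promoters of the other ribosome biogenesis genes examined (22.6%), and in 10.0% of 11893 promoters of tested genes. The members held 13 copies, and 12 of these began between 20 bases before and 36 bases after the start. On either strand, the variant CACGCG was present in 36.7% of member promoters and 17.6% of tested-gene promoters, CCAAT in 40% and 37.2%, CCGGAAGT in 20% and 8.49%, and TATAAA in 3.33% and 6.18%. None of these other motifs can share a base with CACGTG. Such a match is a description of letters and not evidence of binding. The windows of up to 30 bases shown here are those of the 9 members that hold CACGTG and that were called lower in siTRIP12 than in Scrambled libraries, a call that 17.4% of all tested genes had. They are written 5′ to 3′ on the strand of the gene, with the E-box in capitals.
MRTO4 (chr1:19251807-19251836, plus strand): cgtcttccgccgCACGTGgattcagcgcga
WDR43 (chr2:28894658-28894687, plus strand): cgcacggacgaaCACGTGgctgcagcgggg
PNO1 (chr2:68157885-68157914, plus strand): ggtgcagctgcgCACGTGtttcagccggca
RRP9 (chr3:51941892-51941921, minus strand): gggttcagctgcCACGTGagttctgcggcc
NOP14 (chr4:2963374-2963403, minus strand): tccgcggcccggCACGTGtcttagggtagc
BYSL (chr6:41921515-41921544, plus strand): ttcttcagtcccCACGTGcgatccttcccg
NOP2 (chr12:6568242-6568268, minus strand): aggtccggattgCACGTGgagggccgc
FBL (chr19:39846356-39846385, minus strand): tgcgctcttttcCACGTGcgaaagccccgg
PES1 (chr22:30591880-30591909, minus strand): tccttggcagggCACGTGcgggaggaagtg

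Libraries held 37912312 to 43881471 reads assigned to genes. TRIP12 fell to 16.5% of the Scrambled mean in siTRIP12+siOTUD5 and 13.0% in siTRIP12 libraries, and OTUD5 to 18.2% in siTRIP12+siOTUD5 and 18.6% in siOTUD5 libraries. In siTRIP12 libraries OTUD5 was higher, at 123.4% of the Scrambled mean (log2 0.30 ± 0.072, SE, adjusted p = 0.00346), and its part in the siTRIP12 and interaction results was not tested. Remaining TRIP12 was higher in siTRIP12+siOTUD5 than in siTRIP12 libraries (log2 0.35 ± 0.082, SE, adjusted p = 0.00794). The part of this difference in the comparison of those groups and in the interaction was not tested. The 10 mesenchymal markers examined summed to 6529 to 6674 TPM (transcript abundance scaled for length and depth) in siTRIP12+siOTUD5, 6032 to 6618 in siTRIP12, 7281 to 7762 in siOTUD5 and 7403 to 8005 in Scrambled libraries. Summed epithelial markers (6 genes) reached at most 0.911 TPM in siTRIP12+siOTUD5, 2.51 TPM in siTRIP12, 1.87 TPM in siOTUD5 and 3.22 TPM in Scrambled libraries, and GRHL2 and CDH3 were at 0 in all 12 libraries. Leukocyte markers (5 genes) summed to 1.19 TPM at most and endothelial markers (4 genes) to 0.857 TPM at most, both in Scrambled libraries. The mesenchymal sum was thus lower in siTRIP12+siOTUD5 and siTRIP12 libraries than in siOTUD5 and Scrambled libraries, and its part in the results below was not tested. Most of that sum came from VIM (3143 to 3864 TPM over the 12 libraries) and LGALS1 (1682 to 2503 TPM). S100A4, also on that list, had a median of 1.32 TPM. In bulk RNA, fewer cells of a kind and less RNA per cell cannot be told apart. Scrambled replicate 3 stood apart from the other Scrambled libraries in a way that followed transcript length. Over the 40 members, its log2 difference from the mean of Scrambled replicates 1 and 2 had Spearman's rho = -0.70 with effective transcript length, as a description over genes that share these libraries. The median difference was 0.21 for the 20 shorter members and 0.040 for the 20 longer ones, from 0.31 for NPM1 down to -0.51 for POLR1A. All results that compare with Scrambled share these 3 libraries, so values without Scrambled replicate 3 are given beside the members where leaving it out ended or gave a call or moved a called change by over 1.5 times.

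**Figure D1:**
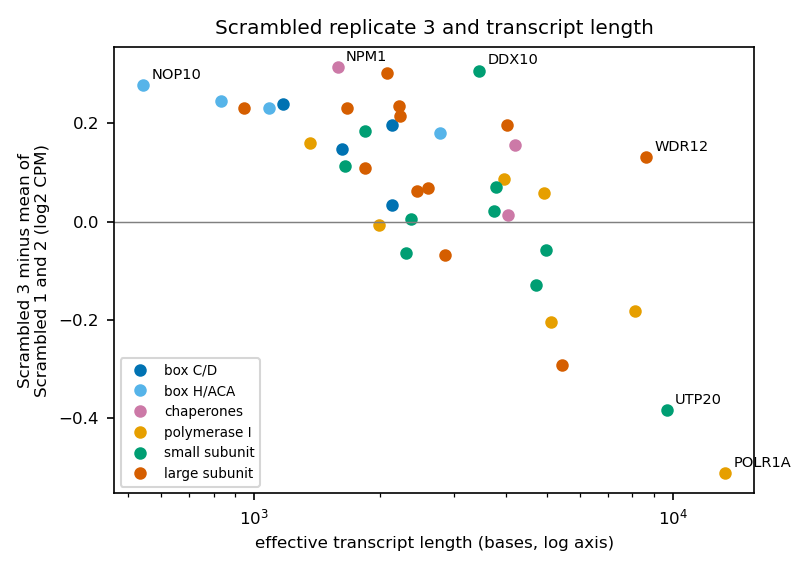
Each point is 1 of the 40 members, coloured by role, with effective transcript length on a log axis (bases) and the log2 difference in CPM between Scrambled replicate 3 and the mean of Scrambled replicates 1 and 2. Short members such as NPM1 lie above 0, and POLR1A and UTP20, with long transcripts, lie far below it.

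Levels between genes were compared in TPM, which is per length. In Scrambled libraries NPM1 was the most abundant member at 4504 ± 392 TPM (SD, n = 3), followed by 856 ± 21.1 TPM for NCL and 572 ± 30.9 TPM for NHP2. The lowest levels were 23.4 ± 5.397 TPM for POLR1A, 23.1 ± 2.14 TPM for DDX10 and 19.2 ± 3.59 TPM for UTP20. Changes between groups were tested on read counts and are given below with depth-normalised counts (CPM). A gene is said to have risen or fallen, or is called, where its adjusted p in edgeR's quasi-likelihood test was under 0.05 after adjustment over all 16283 tested genes.

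In siTRIP12 against Scrambled libraries, 25 of the 40 members fell and 1 rose, whereas 17.4% of all tested genes were called lower and 14.5% higher (31.9% in all). The median log2 change was -0.19 over the members and 0.0069 over all tested genes. In siOTUD5 against Scrambled, 19 members fell and 4 rose, beside 11.9% and 11.4% of all tested genes (23.2% in all), with medians of -0.17 and -0.0078. In siTRIP12+siOTUD5 against Scrambled, 21 members fell and 3 rose, beside 16.2% and 14.7% of all tested genes (30.9% in all), with medians of -0.18 and 0.0024. With upper-quartile scaling in place of TMM the split in this last comparison was 19 members lower and 6 higher, beside 13.6% and 16.7% of all tested genes. Libraries of the knockdown group all lay below all Scrambled libraries for 23 members in siTRIP12+siOTUD5, 26 in siTRIP12 and 24 in siOTUD5, beside 21.6%, 21.1% and 19.8% of all tested genes. They all lay above it for 5 members in siTRIP12+siOTUD5, 1 in siTRIP12 and 7 in siOTUD5, beside 20.8%, 20.3% and 19.4% of all tested genes. With Scrambled replicate 3 left out, the members called lower and higher were 24 and 5 in siTRIP12+siOTUD5, 24 and 2 in siTRIP12, and 16 and 5 in siOTUD5, beside 15.6% and 14% of the genes tested in that fit in siTRIP12+siOTUD5, 17.3% and 14.1% in siTRIP12, and 10.8% and 10.4% in siOTUD5. The changes were small: the members lay between -0.49 and 0.49 in siTRIP12+siOTUD5, -0.48 and 0.59 in siTRIP12, and -0.44 and 0.56 in siOTUD5.

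**Figure D2:**
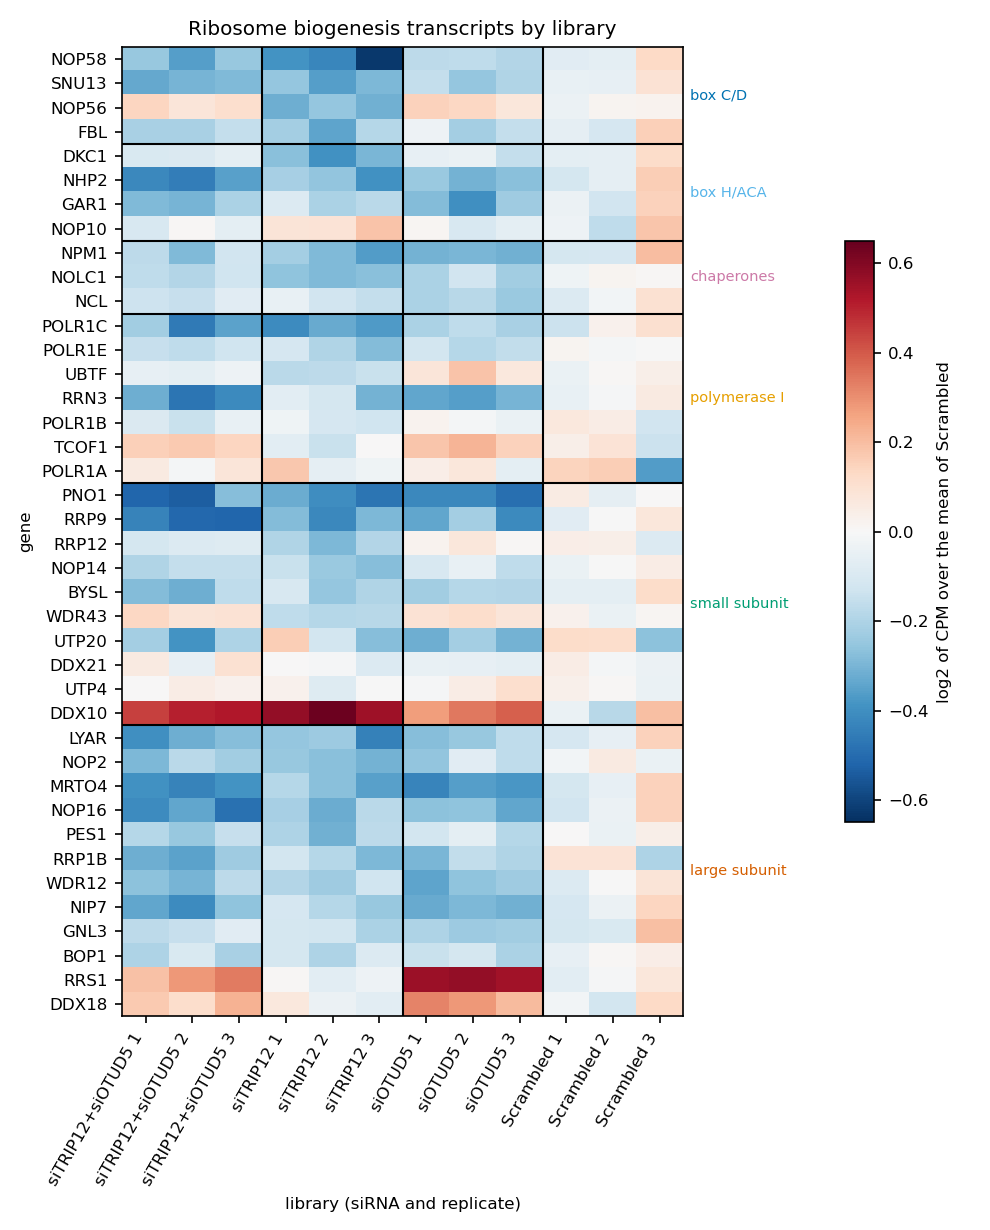
Colours give the log2 ratio of each library's CPM to the mean of the 3 Scrambled libraries, with the 40 members in rows by role and the 12 libraries in columns. Most rows are blue in the knockdown libraries, DDX10 is red in all 9 of them, RRS1 is reddest in siOTUD5, and among the knockdown libraries NOP56 is blue only in siTRIP12.

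Of the 12 members with the E-box, 8 were called lower in siTRIP12+siOTUD5, 9 in siTRIP12 and 5 in siOTUD5 libraries than in Scrambled ones. Of the 18 members whose matched promoter lacked these letters, 8 were called lower in siTRIP12+siOTUD5, 10 in siTRIP12 and 10 in siOTUD5. Among all tested genes 16.2%, 17.4% and 11.9% were called lower, in the same order. UTP4, UTP20 and NOP10 hold the E-box and were not called lower in siTRIP12. Whether the calls depended on the E-box was not tested, and the calls of all tested genes were not split by it.

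The box C/D proteins form the core of the particles that methylate ribosomal RNA. All 4 fell in siTRIP12, 1 of 4 in siOTUD5 and 3 of 4 in siTRIP12+siOTUD5, each against Scrambled. Of all tested genes, 17.4%, 11.9% and 16.2% were called lower in these comparisons. NOP58, a scaffold subunit of these particles, had 150.3, 139 and 150.2 CPM in siTRIP12+siOTUD5 libraries, 136, 133 and 115 CPM in siTRIP12 libraries, 158, 159 and 156 CPM in siOTUD5 libraries, and 169, 170.1 and 195 CPM in Scrambled libraries. The 4 groups did not overlap, with siTRIP12 lowest and Scrambled highest. NOP58 fell by 0.48 ± 0.066 (log2, SE, adjusted p = 2.91e-05) in siTRIP12 and by 0.28 ± 0.066 (log2, SE, adjusted p = 0.00338) in siTRIP12+siOTUD5. In siOTUD5 its log2 change was -0.17 ± 0.066 (SE, adjusted p = 0.0644). NOP56, its partner scaffold, had 215, 206 and 210.2 CPM in siTRIP12+siOTUD5 libraries, 156, 164 and 157 CPM in siTRIP12 libraries, 216, 214 and 206 CPM in siOTUD5 libraries, and 189.7, 198 and 198 CPM in Scrambled libraries. Its siTRIP12 libraries lay below all others, while the siTRIP12+siOTUD5 and siOTUD5 libraries overlapped each other and lay above Scrambled. NOP56 fell by 0.29 ± 0.046 (log2, SE, adjusted p = 0.000107) in siTRIP12. Its log2 change was 0.11 ± 0.046 (SE, adjusted p = 0.0794) in siTRIP12+siOTUD5 and 0.12 ± 0.046 (SE, adjusted p = 0.0693) in siOTUD5. When Scrambled replicate 3 was left out, NOP56 was called higher in both, at 0.12 (adjusted p = 0.0377) in siTRIP12+siOTUD5 and 0.13 (adjusted p = 0.0339) in siOTUD5.

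SNU13, which binds the kink-turn of the guide RNA, had 122, 125 and 126 CPM in siTRIP12+siOTUD5 libraries, 129.5, 120.2 and 126 CPM in siTRIP12 libraries, 138, 129 and 135 CPM in siOTUD5 libraries, and 149, 148 and 165 CPM in Scrambled libraries. All 9 knockdown libraries lay below the Scrambled ones. SNU13 fell by 0.31 ± 0.053 (log2, SE, adjusted p = 0.00028) in siTRIP12+siOTUD5, by 0.30 ± 0.053 (log2, SE, adjusted p = 0.00033) in siTRIP12 and by 0.20 ± 0.053 (log2, SE, adjusted p = 0.0106) in siOTUD5. FBL, fibrillarin, the methyltransferase itself, fell by 0.25 ± 0.067 (log2, SE, adjusted p = 0.00872) in siTRIP12 and by 0.19 ± 0.067 (log2, SE, adjusted p = 0.0382) in siTRIP12+siOTUD5. In a fit that lacked Scrambled replicate 3, its changes were -0.17 (adjusted p = 0.0223) in siTRIP12 and -0.11 (adjusted p = 0.14) in siTRIP12+siOTUD5, so that the call in siTRIP12+siOTUD5 was lost.

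Of the 4 box H/ACA proteins, 2 fell in each comparison with Scrambled, beside 16.2% of all tested genes in siTRIP12+siOTUD5, 17.4% in siTRIP12 and 11.9% in siOTUD5. DKC1, dyskerin, the pseudouridine synthase that is also part of telomerase, had 187, 188 and 192 CPM in siTRIP12+siOTUD5 libraries, 166, 152 and 163 CPM in siTRIP12 libraries, 193, 195 and 179.8 CPM in siOTUD5 libraries, and 192, 192 and 218 CPM in Scrambled libraries. The siTRIP12 libraries were the lowest, and the other 3 groups overlapped. DKC1 fell by 0.32 ± 0.057 (log2, SE, adjusted p = 0.000342) in siTRIP12. Its log2 change was -0.086 ± 0.057 (SE, adjusted p = 0.276) in siTRIP12+siOTUD5 and -0.082 ± 0.057 (SE, adjusted p = 0.329) in siOTUD5.

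NHP2, a structural subunit, had 158, 155 and 165 CPM in siTRIP12+siOTUD5 libraries, 182, 177 and 161 CPM in siTRIP12 libraries, 179, 171 and 175 CPM in siOTUD5 libraries, and 195, 203 and 236 CPM in Scrambled libraries. All knockdown libraries were below the Scrambled ones. NHP2 fell by 0.41 ± 0.065 (log2, SE, adjusted p = 0.000161) in siTRIP12+siOTUD5, by 0.29 ± 0.065 (log2, SE, adjusted p = 0.0027) in siTRIP12 and by 0.27 ± 0.065 (log2, SE, adjusted p = 0.0058) in siOTUD5. GAR1, needed for product release, had 55.8, 55.3 and 58.99 CPM in siTRIP12+siOTUD5 libraries, 63.98, 59.1 and 60.4 CPM in siTRIP12 libraries, 56.03, 51.6 and 58.1 CPM in siOTUD5 libraries, and 66.3, 62.6 and 75.6 CPM in Scrambled libraries. Its siOTUD5 and siTRIP12+siOTUD5 libraries lay below Scrambled, whereas siTRIP12 overlapped it. GAR1 fell by 0.27 ± 0.070 (log2, SE, adjusted p = 0.00744) in siTRIP12+siOTUD5 and by 0.30 ± 0.070 (log2, SE, adjusted p = 0.00443) in siOTUD5, and its log2 change in siTRIP12 was -0.16 ± 0.069 (SE, adjusted p = 0.0965). NOP10, the smallest subunit, was called in none of the 3 comparisons, with log2 changes between -0.052 and 0.12. Without Scrambled replicate 3, NOP10 was called higher in siTRIP12, at 0.22 (adjusted p = 0.00458).

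Among the nucleolar chaperones, NOLC1, which escorts both kinds of guide particle, had 519, 509 and 531 CPM in siTRIP12+siOTUD5 libraries, 485, 477 and 481 CPM in siTRIP12 libraries, 505, 533 and 497 CPM in siOTUD5 libraries, and 570.2, 589 and 585 CPM in Scrambled libraries. Scrambled libraries were the highest and siTRIP12 libraries the lowest, with siTRIP12+siOTUD5 and siOTUD5 overlapping between them. NOLC1 fell by 0.16 ± 0.047 (log2, SE, adjusted p = 0.0135) in siTRIP12+siOTUD5, by 0.27 ± 0.047 (log2, SE, adjusted p = 0.000244) in siTRIP12 and by 0.18 ± 0.047 (log2, SE, adjusted p = 0.0084) in siOTUD5. NPM1, nucleophosmin, a histone and ribosomal protein chaperone, had 2802, 2582 and 2891 CPM in siTRIP12+siOTUD5 libraries, 2702, 2585 and 2454 CPM in siTRIP12 libraries, 2547, 2564 and 2537 CPM in siOTUD5 libraries, and 2915, 2920 and 3627 CPM in Scrambled libraries. Scrambled libraries lay above all others, and Scrambled replicate 3 was far above the other 2. NPM1 fell by 0.29 ± 0.075 (log2, SE, adjusted p = 0.00639) in siTRIP12 and by 0.31 ± 0.075 (log2, SE, adjusted p = 0.00642) in siOTUD5, and without Scrambled replicate 3 by less: its log2 changes were then -0.18 (adjusted p = 0.0105) in siTRIP12 and -0.20 (adjusted p = 0.0088) in siOTUD5. In siTRIP12+siOTUD5 the change of NPM1 was -0.19 ± 0.074 (SE, adjusted p = 0.0579). NCL, nucleolin, fell by 0.21 ± 0.056 (log2, SE, adjusted p = 0.0118) in siOTUD5. Its log2 changes were -0.12 ± 0.056 (SE, adjusted p = 0.118) in siTRIP12+siOTUD5 and -0.11 ± 0.056 (SE, adjusted p = 0.156) in siTRIP12.

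Of the 7 RNA polymerase I genes, 2 fell in siTRIP12+siOTUD5, 3 fell in siTRIP12, and 1 fell and 1 rose in siOTUD5. The shares of all tested genes called lower were 16.2%, 17.4% and 11.9%, and those called higher 14.7%, 14.5% and 11.4%. In siOTUD5 this class, at 14.3% lower and 14.3% higher, was thus near the shares of all tested genes. With Scrambled replicate 3 left out, 4 fell in siTRIP12+siOTUD5 and 5 in siTRIP12, beside 15.6% and 17.3% of the genes tested in that fit. POLR1C, a subunit shared with RNA polymerase III, had 33.9, 28.9 and 31.2 CPM in siTRIP12+siOTUD5 libraries, 29.9, 31.6 and 30.8 CPM in siTRIP12 libraries, 34.5, 35.4 and 34.3 CPM in siOTUD5 libraries, and 35.95, 40.5 and 42.6 CPM in Scrambled libraries. Scrambled libraries were the highest, siOTUD5 came next, and siTRIP12+siOTUD5 and siTRIP12 overlapped below it. POLR1C fell by 0.34 ± 0.074 (log2, SE, adjusted p = 0.00209) in siTRIP12+siOTUD5 and by 0.37 ± 0.074 (log2, SE, adjusted p = 0.00103) in siTRIP12, with -0.19 ± 0.074 (SE, adjusted p = 0.0691) in siOTUD5. Reads counted for POLR1C may include those of genes on the other strand (XPO5 and YIPF3 overlap it), because the counting is not stated to use strand. The same holds for SNU13, NHP2, RRN3, NOP14, UTP4, NOP16, BOP1, PES1, WDR12, GNL3, NIP7 and MRTO4, which also overlap genes on the other strand that have reads in the table. UTP4 further overlaps the protein-coding gene SNTB2 on its own strand (17384 reads over the 12 libraries), and counting by strand would not separate these. POLR1E, the subunit also known as PAF53, had 54.04, 53.5 and 54.7 CPM in siTRIP12+siOTUD5 libraries, 55.4, 52.4 and 49.3 CPM in siTRIP12 libraries, 55.2, 52.7 and 53.7 CPM in siOTUD5 libraries, and 60.6, 59.4 and 59.7 CPM in Scrambled libraries. All knockdown libraries lay below the Scrambled ones, and POLR1E fell by 0.19 ± 0.055 (log2, SE, adjusted p = 0.0126) in siTRIP12. In siTRIP12+siOTUD5 its log2 change was -0.15 ± 0.055 (SE, adjusted p = 0.0527) and in siOTUD5 -0.15 ± 0.055 (SE, adjusted p = 0.0542). With Scrambled replicate 3 left out the change in siTRIP12+siOTUD5 was -0.15 (adjusted p = 0.0492) and was called.

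RRN3, which links polymerase I to its promoter complex, had 52.4, 46.97 and 49.01 CPM in siTRIP12+siOTUD5 libraries, 62.2, 60.4 and 52.8 CPM in siTRIP12 libraries, 51.8, 51.04 and 53.04 CPM in siOTUD5 libraries, and 63.1, 64.9 and 67.97 CPM in Scrambled libraries. All knockdown libraries were below Scrambled, and siTRIP12+siOTUD5 was also below siTRIP12. RRN3 fell by 0.40 ± 0.066 (log2, SE, adjusted p = 0.000197) in siTRIP12+siOTUD5 and by 0.33 ± 0.066 (log2, SE, adjusted p = 0.00155) in siOTUD5, with -0.16 ± 0.065 (SE, adjusted p = 0.073) in siTRIP12. RRN3 has 4 listed pseudogenes whose reads amounted to 11% of its own, so that reads may have been split among them. TCOF1, treacle, a nucleolar scaffold for polymerase I transcription, had 441, 446 and 436 CPM in siTRIP12+siOTUD5 libraries, 377, 359 and 397 CPM in siTRIP12 libraries, 449, 462 and 439 CPM in siOTUD5 libraries, and 407, 422 and 359.5 CPM in Scrambled libraries. The siTRIP12+siOTUD5 and siOTUD5 libraries lay above all siTRIP12 and Scrambled ones. TCOF1 rose by 0.18 ± 0.059 (log2, SE, adjusted p = 0.0295) in siOTUD5, but without Scrambled replicate 3 the change was 0.12 (adjusted p = 0.0737). Its log2 changes were 0.16 ± 0.059 (SE, adjusted p = 0.0527) in siTRIP12+siOTUD5 and -0.069 ± 0.059 (SE, adjusted p = 0.406) in siTRIP12, where it was called lower in the fit that lacked Scrambled replicate 3, at -0.14 (adjusted p = 0.0289). UBTF, the factor that keeps ribosomal DNA open, fell by 0.16 ± 0.048 (log2, SE, adjusted p = 0.0142) in siTRIP12, with -0.050 ± 0.048 (SE, adjusted p = 0.465) in siTRIP12+siOTUD5 and 0.11 ± 0.048 (SE, adjusted p = 0.097) in siOTUD5. It was called higher in siOTUD5 once Scrambled replicate 3 was left out, at 0.13 (adjusted p = 0.0382). The largest subunits, POLR1A and POLR1B, were called in none of the 3 comparisons. POLR1A had log2 changes of 0.043 ± 0.11 (SE, adjusted p = 0.819) in siTRIP12+siOTUD5, 0.034 ± 0.11 (SE, adjusted p = 0.854) in siTRIP12 and 0.018 ± 0.11 (SE, adjusted p = 0.935) in siOTUD5. POLR1B had -0.095 ± 0.056 (SE, adjusted p = 0.214) in siTRIP12+siOTUD5, -0.088 ± 0.056 (SE, adjusted p = 0.252) in siTRIP12 and -0.010 ± 0.055 (SE, adjusted p = 0.922) in siOTUD5. Without Scrambled replicate 3 it was called lower in siTRIP12+siOTUD5 at -0.15 (adjusted p = 0.0125) and in siTRIP12 at -0.15 (adjusted p = 0.0157).

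**Figure D3:**
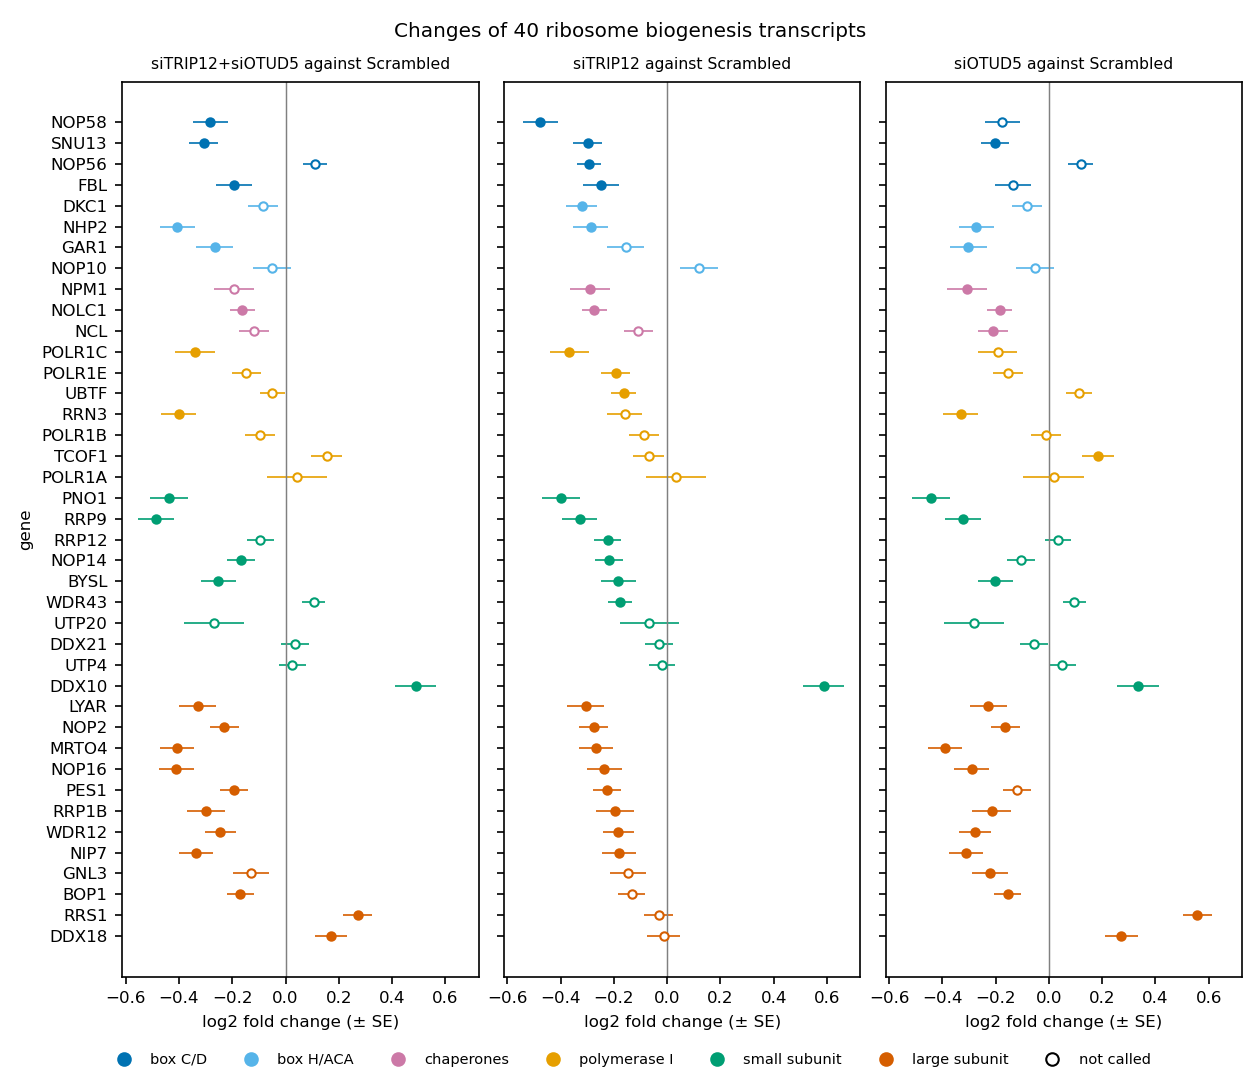
Points give the log2 fold change of each member with its standard error, in siTRIP12+siOTUD5 (left), siTRIP12 (middle) and siOTUD5 (right) against Scrambled. Filled points passed an adjusted p of 0.05. Most filled points lie left of 0, DDX10 lies right of it in all 3 panels, and RRS1 and DDX18 lie right of it in the left and right panels.

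Of the 10 small subunit factors, 4 fell and 1 rose in siTRIP12+siOTUD5, 6 fell and 1 rose in siTRIP12, and 3 fell and 1 rose in siOTUD5. Beside these, 16.2%, 17.4% and 11.9% of all tested genes were called lower, and 14.7%, 14.5% and 11.4% higher. When Scrambled replicate 3 was left out, 6 fell and 2 rose in siTRIP12+siOTUD5, beside 15.6% and 14% of the genes tested in that fit. DDX10, an RNA helicase of the small subunit processome, was the small subunit factor that rose. It had 48.2, 50.2 and 50.7 CPM in siTRIP12+siOTUD5 libraries, 52.6, 55.02 and 51.8 CPM in siTRIP12 libraries, 42.7, 44.8 and 46.2 CPM in siOTUD5 libraries, and 34.4, 31.2 and 40.5 CPM in Scrambled libraries. The 4 groups did not overlap, in the order siTRIP12, siTRIP12+siOTUD5, siOTUD5 and Scrambled from high to low. DDX10 rose by 0.49 ± 0.078 (log2, SE, adjusted p = 0.000141) in siTRIP12+siOTUD5, by 0.59 ± 0.077 (log2, SE, adjusted p = 1.83e-05) in siTRIP12 and by 0.33 ± 0.078 (log2, SE, adjusted p = 0.0048) in siOTUD5. PNO1, an assembly factor that binds near the future end of the small subunit RNA, had 40.3, 39.7 and 47.6 CPM in siTRIP12+siOTUD5 libraries, 46.1, 43.6 and 41.5 CPM in siTRIP12 libraries, 43.04, 43.2 and 41.02 CPM in siOTUD5 libraries, and 59.7, 55.3 and 57.7 CPM in Scrambled libraries. All knockdown libraries were below Scrambled and overlapped one another. PNO1 fell by 0.44 ± 0.071 (log2, SE, adjusted p = 0.000177) in siTRIP12+siOTUD5, by 0.40 ± 0.071 (log2, SE, adjusted p = 0.000363) in siTRIP12 and by 0.44 ± 0.071 (log2, SE, adjusted p = 0.000269) in siOTUD5.

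WDR43, a processome subunit, had 155, 150.2 and 151 CPM in siTRIP12+siOTUD5 libraries, 126, 125 and 125 CPM in siTRIP12 libraries, 151, 153 and 149 CPM in siOTUD5 libraries, and 144, 138 and 143 CPM in Scrambled libraries. The siTRIP12 libraries were the lowest, Scrambled came next, and siTRIP12+siOTUD5 and siOTUD5 overlapped above them. WDR43 fell by 0.18 ± 0.044 (log2, SE, adjusted p = 0.00511) in siTRIP12, against 0.11 ± 0.044 (SE, adjusted p = 0.0798) in siTRIP12+siOTUD5 and 0.096 ± 0.044 (SE, adjusted p = 0.132) in siOTUD5. It was called higher in siTRIP12+siOTUD5 in the fit that lacked Scrambled replicate 3, at 0.11 (adjusted p = 0.045). RRP9, a protein of the U3 guide particle, fell by 0.49 ± 0.067 (log2, SE, adjusted p = 3.58e-05) in siTRIP12+siOTUD5, by 0.33 ± 0.066 (log2, SE, adjusted p = 0.00101) in siTRIP12 and by 0.32 ± 0.066 (log2, SE, adjusted p = 0.00195) in siOTUD5. BYSL, bystin, fell by 0.25 ± 0.065 (log2, SE, adjusted p = 0.00685) in siTRIP12+siOTUD5, by 0.18 ± 0.065 (log2, SE, adjusted p = 0.0398) in siTRIP12 and by 0.20 ± 0.065 (log2, SE, adjusted p = 0.0338) in siOTUD5. In a fit that lacked Scrambled replicate 3, the change of BYSL was -0.12 (adjusted p = 0.137) in siTRIP12 and -0.14 (adjusted p = 0.112) in siOTUD5, and both calls were lost. NOP14, a small subunit processing factor, fell by 0.17 ± 0.052 (log2, SE, adjusted p = 0.0211) in siTRIP12+siOTUD5 and by 0.22 ± 0.052 (log2, SE, adjusted p = 0.00382) in siTRIP12. NOP14 had -0.10 ± 0.052 (SE, adjusted p = 0.17) in siOTUD5. RRP12, which helps export, fell by 0.22 ± 0.050 (log2, SE, adjusted p = 0.00239) in siTRIP12, with -0.095 ± 0.050 (SE, adjusted p = 0.165) in siTRIP12+siOTUD5 and 0.035 ± 0.050 (SE, adjusted p = 0.672) in siOTUD5. It was called lower in siTRIP12+siOTUD5 once Scrambled replicate 3 was left out, at -0.14 (adjusted p = 0.018). UTP4, UTP20 and the helicase DDX21 were called in none of the 3 comparisons. UTP4 had log2 changes of 0.026 in siTRIP12+siOTUD5, -0.020 in siTRIP12 and 0.051 in siOTUD5, and DDX21 had 0.037 in siTRIP12+siOTUD5, -0.030 in siTRIP12 and -0.056 in siOTUD5. UTP20, whose transcript is long, had log2 changes of -0.27 ± 0.11 (SE, adjusted p = 0.0911) in siTRIP12+siOTUD5, -0.067 ± 0.11 (SE, adjusted p = 0.698) in siTRIP12 and -0.28 ± 0.11 (SE, adjusted p = 0.0902) in siOTUD5. Without Scrambled replicate 3, UTP20 was called lower in both, at -0.38 (adjusted p = 0.0112) in siTRIP12+siOTUD5 and -0.40 (adjusted p = 0.0128) in siOTUD5.

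Of the 12 large subunit factors, 9 fell and 2 rose in siTRIP12+siOTUD5, 8 fell in siTRIP12, and 9 fell and 2 rose in siOTUD5. All tested genes were called lower in 16.2%, 17.4% and 11.9% of cases and higher in 14.7%, 14.5% and 11.4%. With Scrambled replicate 3 left out, 9 fell and 2 rose in siTRIP12+siOTUD5, 6 fell in siTRIP12, and 6 fell and 2 rose in siOTUD5. In that fit 15.6%, 17.3% and 10.8% of the genes tested were called lower, and 14%, 14.1% and 10.4% higher. RRS1, which brings the 5S particle into the assembling subunit, was the member with the largest rise in siOTUD5. It had 80.7, 86.2 and 89.4 CPM in siTRIP12+siOTUD5 libraries, 71.1, 67.4 and 69.2 CPM in siTRIP12 libraries, 104, 105 and 103 CPM in siOTUD5 libraries, and 67.5, 70.5 and 74.4 CPM in Scrambled libraries. The siOTUD5 libraries were the highest, siTRIP12+siOTUD5 came next without overlap, and siTRIP12 and Scrambled overlapped below. RRS1 rose by 0.27 ± 0.054 (log2, SE, adjusted p = 0.00108) in siTRIP12+siOTUD5 and by 0.56 ± 0.054 (log2, SE, adjusted p = 1.37e-06) in siOTUD5, with -0.032 ± 0.054 (SE, adjusted p = 0.697) in siTRIP12. DDX18, an RNA helicase, rose by 0.17 ± 0.061 (log2, SE, adjusted p = 0.0427) in siTRIP12+siOTUD5 and by 0.27 ± 0.061 (log2, SE, adjusted p = 0.00394) in siOTUD5, with -0.013 ± 0.061 (SE, adjusted p = 0.901) in siTRIP12.

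NOP2, a methyltransferase of the large subunit RNA, had 135, 146 and 141 CPM in siTRIP12+siOTUD5 libraries, 139, 136 and 133 CPM in siTRIP12 libraries, 138, 157 and 147 CPM in siOTUD5 libraries, and 163, 172 and 159.6 CPM in Scrambled libraries. Scrambled libraries were the highest, and the 3 knockdown groups overlapped. NOP2 fell by 0.23 ± 0.054 (log2, SE, adjusted p = 0.00373) in siTRIP12+siOTUD5, by 0.28 ± 0.054 (log2, SE, adjusted p = 0.000876) in siTRIP12 and by 0.16 ± 0.054 (log2, SE, adjusted p = 0.0375) in siOTUD5. LYAR, a nucleolar zinc finger protein, had 77.3, 81.9 and 84.3 CPM in siTRIP12+siOTUD5 libraries, 85.6, 86.4 and 75.3 CPM in siTRIP12 libraries, 84.3, 85.9 and 91.01 CPM in siOTUD5 libraries, and 94.6, 98.1 and 113 CPM in Scrambled libraries. All knockdown libraries lay below Scrambled. LYAR fell by 0.33 ± 0.070 (log2, SE, adjusted p = 0.00173) in siTRIP12+siOTUD5, by 0.31 ± 0.070 (log2, SE, adjusted p = 0.00281) in siTRIP12 and by 0.23 ± 0.070 (log2, SE, adjusted p = 0.0254) in siOTUD5, and without Scrambled replicate 3 the change in siOTUD5 was -0.15 (adjusted p = 0.0838).

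MRTO4, which holds the place of a stalk protein in the precursor particle, fell by 0.41 ± 0.064 (log2, SE, adjusted p = 0.000121) in siTRIP12+siOTUD5, by 0.27 ± 0.063 (log2, SE, adjusted p = 0.00364) in siTRIP12 and by 0.39 ± 0.063 (log2, SE, adjusted p = 0.000307) in siOTUD5. NOP16, which takes part in early precursor assembly, fell by 0.41 in siTRIP12+siOTUD5, 0.24 in siTRIP12 and 0.29 in siOTUD5 (log2), with -0.16 (adjusted p = 0.0284) in siTRIP12 in the fit that lacked Scrambled replicate 3. NIP7, a large subunit assembly factor, fell by 0.34 in siTRIP12+siOTUD5, 0.18 in siTRIP12 and 0.31 in siOTUD5, and its call in siTRIP12 was lost without Scrambled replicate 3, at -0.11 (adjusted p = 0.154). The 3 proteins of the PeBoW complex, which is needed to process the large subunit RNAs, were PES1, BOP1 and WDR12. WDR12 fell by 0.25 in siTRIP12+siOTUD5, 0.18 in siTRIP12 and 0.28 in siOTUD5 (log2). PES1 fell by 0.19 ± 0.053 (log2, SE, adjusted p = 0.00922) in siTRIP12+siOTUD5 and by 0.23 ± 0.053 (log2, SE, adjusted p = 0.00312) in siTRIP12, with -0.12 ± 0.053 (SE, adjusted p = 0.107) in siOTUD5. BOP1 fell by 0.17 ± 0.051 (log2, SE, adjusted p = 0.0172) in siTRIP12+siOTUD5 and by 0.15 ± 0.051 (log2, SE, adjusted p = 0.0368) in siOTUD5, with -0.13 ± 0.051 (SE, adjusted p = 0.0552) in siTRIP12. When Scrambled replicate 3 was left out, the siTRIP12 change of WDR12 was -0.14 (adjusted p = 0.0535) and the siOTUD5 change of BOP1 was -0.13 (adjusted p = 0.0528). RRP1B, a nucleolar processing factor, fell by 0.30 in siTRIP12+siOTUD5, 0.20 in siTRIP12 and 0.22 in siOTUD5, and its calls in siTRIP12 and siOTUD5 were lost in 18 and 11 of the 23 alternative analyses of each. GNL3, nucleostemin, fell by 0.22 ± 0.067 (log2, SE, adjusted p = 0.024) in siOTUD5, a call lost without Scrambled replicate 3, at -0.11 (adjusted p = 0.0702). Its log2 changes were -0.13 ± 0.067 (SE, adjusted p = 0.157) in siTRIP12+siOTUD5 and -0.15 ± 0.067 (SE, adjusted p = 0.109) in siTRIP12.

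The combined knockdown was next set against each single one, which does not use the Scrambled libraries other than for the shared estimate of spread. Against siTRIP12, 5 members were higher and 1 lower in siTRIP12+siOTUD5, beside 8.78% and 6.93% of all tested genes (15.7% in all), and the median change was 0.012. NOP56 rose by 0.40 ± 0.046 (SE, adjusted p = 1.51e-05), RRS1 by 0.30 ± 0.054 (adjusted p = 0.000966), WDR43 by 0.28 ± 0.044 (adjusted p = 0.000282), DKC1 by 0.24 ± 0.057 (adjusted p = 0.00889) and TCOF1 by 0.22 ± 0.059 (adjusted p = 0.0143). RRN3 fell by 0.24 ± 0.066 (log2, SE, adjusted p = 0.0186). For each of these 6 genes the 3 siTRIP12+siOTUD5 libraries lay apart from the 3 siTRIP12 ones. Against siOTUD5, no member was higher and 2 were lower in siTRIP12+siOTUD5, beside 3.35% and 5.07% of all tested genes (8.41% in all). These were RRS1, which fell by 0.29 ± 0.054 (log2, SE, adjusted p = 0.0028), and UBTF, which fell by 0.16 ± 0.048 (log2, SE, adjusted p = 0.0418). Over all members, the siTRIP12+siOTUD5 libraries lay above all siTRIP12 ones for 10 and below them for 8, beside 18.7% and 17.3% of all tested genes. They lay above all siOTUD5 ones for 4 and below them for 10, beside 16.3% and 16.8%. At an unadjusted p under 0.05 there were 16 members (beside 29.2% of all tested genes) in the comparison with siTRIP12 and 4 (beside 22.4%) in that with siOTUD5. In a fit that lacked Scrambled replicate 3, 10 members were higher and 5 lower against siTRIP12, beside 12.8% and 10.1% of the genes tested in that fit, and 3 were lower against siOTUD5, beside 8.41%. The calls so gained against siTRIP12 were higher for NOP58, NOLC1, UBTF, RRP12 and DDX18 and lower for NOP10, NOP16, NIP7 and MRTO4, and RRP12 was gained as lower against siOTUD5.

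The interaction asks whether the change in siTRIP12+siOTUD5 differs from the sum of the changes in siTRIP12 and siOTUD5, and a positive value means that it was higher than that sum. It was called positive for 6 members and negative for 2, beside 4.61% and 3.55% of all tested genes (8.16% in all). The median was 0.16 over the members and 0.0085 over all tested genes. PNO1 had 0.40 ± 0.10 (SE, adjusted p = 0.0204), and its level lay in the same range in all 3 knockdown groups. NPM1 had 0.40 ± 0.11 (SE, adjusted p = 0.0253) and NOP58 0.37 ± 0.093 (SE, adjusted p = 0.0212). DKC1 had 0.32 ± 0.080 (SE, adjusted p = 0.0216), NOLC1 0.30 ± 0.066 (SE, adjusted p = 0.0101) and NOP56 0.28 ± 0.065 (SE, adjusted p = 0.0121). The negative ones were DDX10, which rose in all 3 comparisons with Scrambled and had -0.43 ± 0.11 (SE, adjusted p = 0.0212), and RRS1, with -0.25 ± 0.077 (SE, adjusted p = 0.0493). POLR1E had the smallest p among the polymerase I genes and was not called, at 0.20 ± 0.078 (SE, adjusted p = 0.134). Without Scrambled replicate 3, all 8 remained called, with DDX10 at -0.54 (adjusted p = 0.000251) and NPM1 at 0.29 (adjusted p = 0.00849), and WDR43 at 0.18 (adjusted p = 0.0379) and NOP2 at 0.23 (adjusted p = 0.0368) were called as well. Leaving out other single libraries took the number called to between 1 and 7, the lowest without siOTUD5 replicate 3, and NOLC1 was the only one called in every alternative other than a test against a fold of 1.2.

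**Figure D4:**
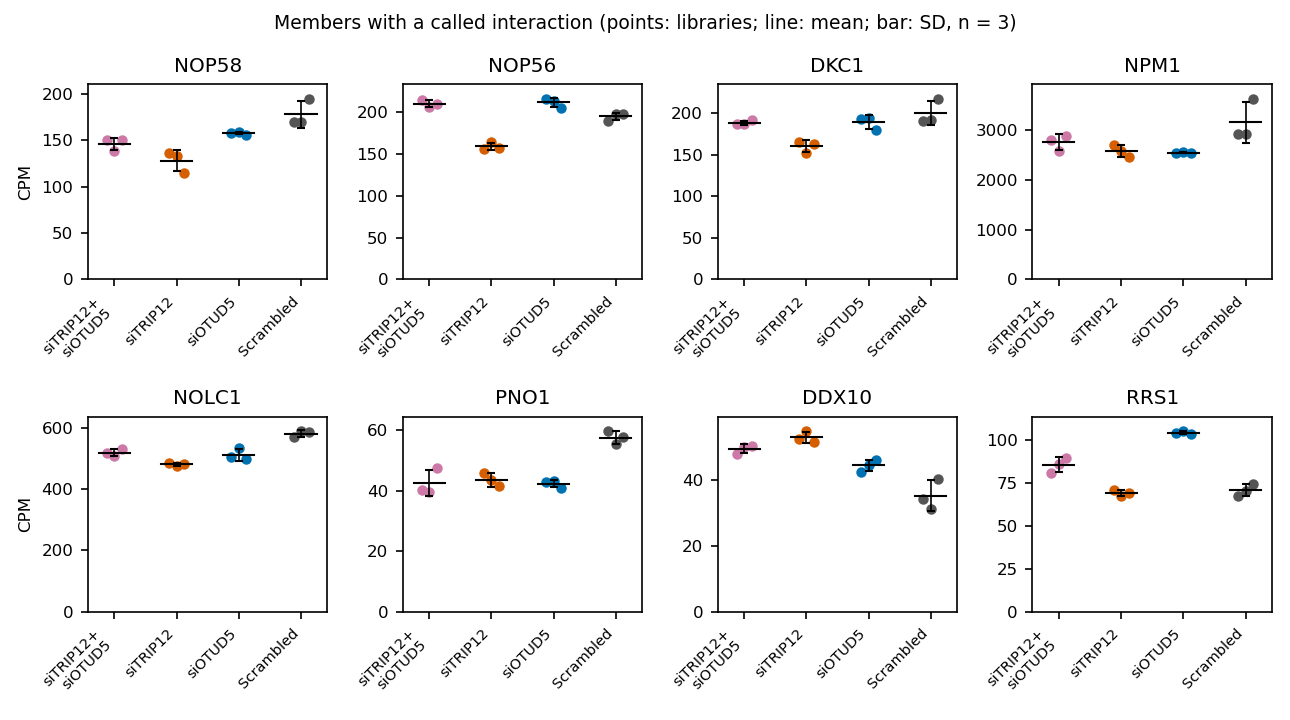
Points show the CPM of each library for the 8 members with a called interaction, in siTRIP12+siOTUD5, siTRIP12, siOTUD5 and Scrambled libraries from left to right, with the mean and SD of 3 libraries. NOP56, DKC1 and NOP58 are lowest in siTRIP12, PNO1 is alike in the 3 knockdown groups, DDX10 is lowest in Scrambled, and RRS1 is highest in siOTUD5.

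Some members share a feature that was not used to choose them, in that 7 of the 40 carry genes of small nucleolar or small Cajal body RNAs nested on the same strand in the GENCODE v29 annotation, 24 in all. GNL3 holds 6, NOP56 5, NOP58 4, NCL 3, WDR43 3, DKC1 2 and POLR1C 1, which is of the Cajal body type. The poly(A) libraries do not measure the mature small RNAs, so only the host transcripts were compared. Of these 7 hosts, 2 fell in siTRIP12+siOTUD5, 5 in siTRIP12 and 2 in siOTUD5 against Scrambled, and none rose, beside 16.2%, 17.4% and 11.9% of all tested genes called lower.

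Other genes of the pathway, on lists drawn up alongside the members, moved as follows against Scrambled. The shares of all tested genes called lower and higher were 16.2% and 14.7% in siTRIP12+siOTUD5, 17.4% and 14.5% in siTRIP12, and 11.9% and 11.4% in siOTUD5. Of 42 further small subunit factors, 20 fell and 1 rose in siTRIP12+siOTUD5, 26 fell in siTRIP12 and 20 fell in siOTUD5. Of 42 further large subunit factors, 17 fell and 2 rose in siTRIP12+siOTUD5, 18 fell in siTRIP12, and 10 fell and 1 rose in siOTUD5. NIFK, which binds large subunit RNA and the Ki-67 protein, fell by 0.71 ± 0.073 (log2, SE, adjusted p = 1.11e-06) in siTRIP12. IMP3, a protein of the U3 particle, fell by 0.60 ± 0.066 (log2, SE, adjusted p = 3.7e-06) in siTRIP12+siOTUD5. RSL24D1, a large subunit assembly factor, rose by 0.50 ± 0.076 (log2, SE, adjusted p = 0.000102) in siTRIP12+siOTUD5 and by 0.56 ± 0.076 (log2, SE, adjusted p = 5.5e-05) in siOTUD5.

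Of 14 further polymerase I genes, 7 fell in siTRIP12+siOTUD5, 4 fell and 1 rose in siTRIP12, and 5 fell in siOTUD5. POLR1G, a polymerase I subunit, fell by 0.65 ± 0.083 (log2, SE, adjusted p = 1.85e-05) in siTRIP12+siOTUD5, by 0.53 ± 0.082 (log2, SE, adjusted p = 9.65e-05) in siTRIP12 and by 0.58 ± 0.083 (log2, SE, adjusted p = 8.28e-05) in siOTUD5. Of 10 assembly factors of the guide particles, 2 fell and 2 rose in siTRIP12+siOTUD5, 3 fell and 1 rose in siTRIP12, and 3 fell and 2 rose in siOTUD5. SHQ1, the chaperone of dyskerin, fell by 0.51 ± 0.067 (log2, SE, adjusted p = 2.71e-05) in siTRIP12+siOTUD5. Of 13 exosome genes, whose products trim precursor RNA, 4 fell and 1 rose in siTRIP12+siOTUD5, 2 fell in siTRIP12 and 3 fell in siOTUD5. The 2 in siTRIP12 were 15.4% of that list, beside 17.4% of all tested genes. Of 13 host genes of small nucleolar RNAs without a protein product, 1 fell and 3 rose in siTRIP12+siOTUD5, 1 fell and 4 rose in siTRIP12, and 1 fell and 2 rose in siOTUD5. Among all tested genes 14.7%, 14.5% and 11.4% were called higher, in the same order. SNHG15 fell by 0.78 ± 0.088 (log2, SE, adjusted p = 4.39e-06) in siTRIP12+siOTUD5, while SNHG3 rose by 0.28 ± 0.065 (log2, SE, adjusted p = 0.00348) there. Over the 121 further protein factors together, 41.3% fell in siTRIP12+siOTUD5, 43.8% in siTRIP12 and 33.9% in siOTUD5, beside 16.2%, 17.4% and 11.9% of all tested genes.

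MYC had 88.9, 89.5 and 83.8 CPM in siTRIP12+siOTUD5 libraries, 74.3, 83.8 and 89.6 CPM in siTRIP12 libraries, 98.9, 91.4 and 87.2 CPM in siOTUD5 libraries, and 108, 110.0 and 103 CPM in Scrambled libraries. All 9 knockdown libraries lay below the Scrambled ones. MYC fell by 0.29 ± 0.066 (log2, SE, adjusted p = 0.00291) in siTRIP12+siOTUD5, by 0.37 ± 0.066 (log2, SE, adjusted p = 0.000356) in siTRIP12 and by 0.21 ± 0.066 (log2, SE, adjusted p = 0.0292) in siOTUD5. MXD4, a partner of MAX that represses E-box genes, rose by 0.49 ± 0.089 (log2, SE, adjusted p = 0.000455) in siTRIP12+siOTUD5, by 1.19 ± 0.088 (log2, SE, adjusted p = 2.25e-08) in siTRIP12 and by 0.42 ± 0.090 (log2, SE, adjusted p = 0.00249) in siOTUD5. MXD1, a repressor of the same family, rose by 0.68 in siTRIP12+siOTUD5, 0.27 in siTRIP12 and 0.57 in siOTUD5. MAX was called in none of the 3, with 0.15 in siTRIP12+siOTUD5, 0.094 in siTRIP12 and 0.061 in siOTUD5. When Scrambled replicate 3 was left out, MXD1 lost its call in siTRIP12, at 0.20 (adjusted p = 0.0752), and MAX was called higher in siTRIP12+siOTUD5, at 0.23 (adjusted p = 0.0152). Of all tested genes, 16.2% were called lower and 14.7% higher in siTRIP12+siOTUD5, 17.4% and 14.5% in siTRIP12, and 11.9% and 11.4% in siOTUD5. Beside these shares, of the 10 genes of the MYC network examined, 1 fell and 3 rose in siTRIP12+siOTUD5, 1 fell and 3 rose in siTRIP12, and 1 fell and 4 rose in siOTUD5. The further ones that rose were MLXIP, a partner of MLX, by 0.21 in siTRIP12+siOTUD5 and 0.30 in siOTUD5, MNT, a MAX-binding repressor, by 0.29 in siOTUD5, and MGA, a MAX partner, by 0.49 in siTRIP12. In the fit that lacked Scrambled replicate 3, MLXIP was not called in siTRIP12+siOTUD5, at 0.12 (adjusted p = 0.0823), nor MNT in siOTUD5, at 0.18 (adjusted p = 0.165), and MGA had 0.31 (adjusted p = 0.0176) in siTRIP12. The repressors MXD3 and MXI1 and the partner MLX were called in none of the 3 comparisons, with MXD3 at -0.22 in siTRIP12+siOTUD5, 0.31 in siTRIP12 and -0.25 in siOTUD5. The part of this network in the members' changes was not tested.

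RPL5 and RPL11, the ribosomal proteins that with 5S RNA restrain MDM2 when assembly is disturbed, were not called against Scrambled. The log2 changes of RPL5 were 0.15 in siTRIP12+siOTUD5, -0.12 in siTRIP12 and 0.14 in siOTUD5, and those of RPL11 were 0.058 in siTRIP12+siOTUD5, -0.081 in siTRIP12 and 0.077 in siOTUD5. Without Scrambled replicate 3, RPL5 was called higher in siTRIP12+siOTUD5 at 0.23 (adjusted p = 0.000365) and in siOTUD5 at 0.23 (adjusted p = 0.000719), and RPL11 in siTRIP12+siOTUD5 at 0.15 (adjusted p = 0.026) and in siOTUD5 at 0.17 (adjusted p = 0.0176). CDKN1A, the cell cycle inhibitor p21, rose by 0.67 ± 0.059 (log2, SE, adjusted p = 2.85e-07) in siTRIP12+siOTUD5, by 0.71 ± 0.059 (log2, SE, adjusted p = 9.07e-08) in siTRIP12 and by 0.75 ± 0.059 (log2, SE, adjusted p = 1e-07) in siOTUD5. MDM2, a ubiquitin ligase, rose by 0.50 in siTRIP12+siOTUD5, 0.29 in siTRIP12 and 0.42 in siOTUD5. CDKN2A did not pass the filter on low counts.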

How the data were processed

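RNA of 12 HT1080 libraries (4 siRNA groups of 3) was analysed from 1 deposited table of genes. Per the submitters' processing notes, HISAT2, StringTie and GRCh38 were used (versions and settings are not given in the sources used here). The deposited read count per gene and library was the value tested. The deposited TPM, made by the authors, served for levels between genes, and the deposited FPKM, by the authors, only to obtain effective transcript length. How reads were assigned by strand is not stated. The members, their 6 role lists and the other lists were chosen with earlier results of these data known.

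Counts were fitted over all 12 libraries with edgeR 4.0.16 in R 4.3.3 (filterByExpr, TMM scaling, robust quasi-likelihood test). Of 46427 genes, 16283 were tested, all 40 members among them, and p-values were adjusted by Benjamini-Hochberg over the 16283 genes. The common biological coefficient of variation was 0.0822. CPM values are TMM-normalised. There were 6 comparisons: each knockdown group against Scrambled, siTRIP12+siOTUD5 against each single knockdown, and the interaction. Values in every library were printed for the members with the smallest p in their role list: the first 2 in siTRIP12, and the first in siOTUD5, in siTRIP12+siOTUD5 against siTRIP12, and for the interaction. Of the other lists up to 4 genes with the smallest p were eligible to be named, and all genes of the MYC and 5S lists, of which 1 is not reported here. The fit was tested on counts simulated for siTRIP12 against Scrambled. Of 67 genes changed 1.2-fold, 41.8% were called in the right direction, beside 95.5% at 1.5-fold and 100% at 2-fold. In the simulation 15532 of 15732 genes were unchanged, whereas 31.9% of tested genes were called in the real comparison. Adjustment of p-values was thus stricter in the simulation, which also left out the deviation of Scrambled replicate 3. These shares therefore do not give the share of real changes that were found. A gene that was not called may still have changed by about 1.2-fold. Alternatives were other scalings and filters, limma-voom 3.58.1, DESeq2 1.42.0, a replicate block, length offsets, a test against a fold of 1.2, the compared groups alone, and leaving out each library.

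Same-numbered libraries did not deviate together: none of 18 pairs had a correlation over 0.1, so the numbers were not used as pairs. No 2 libraries of the same group were alike within sampling noise, and pairs from different groups were not examined for this. Promoter letters came from RefSeq (GRCh38.p14) and nested genes from GENCODE v29. No promoter entry was used for NOP58, SNU13, NOLC1, POLR1E, TCOF1, RRP12, RRS1, RRP1B, BOP1 and DDX18.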

Additional observations from a re-analysis of the deposited data

Results flagged for a closer look

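The following genes had a siOTUD5 effect in siTRIP12-treated cells that differed from the effect without siTRIP12, by edgeR's interaction test with adjusted p under 0.05 over all tested genes. Values are log2 differences, and a negative one means that the change in siTRIP12+siOTUD5 was below the sum of the single changes. Among the members they were 0.40 for NPM1, 0.40 for PNO1, 0.37 for NOP58, 0.32 for DKC1, 0.30 for NOLC1, 0.28 for NOP56, -0.25 for RRS1 and -0.43 for DDX10. Among the other ribosome biogenesis genes that were eligible to be named, they were 0.51 for NIFK, 0.46 for POLR1G, 0.32 for UTP14A, 0.31 for SHQ1, 0.29 for RPF2, 0.23 for EXOSC2 and 0.22 for TSR1, of which SHQ1 lost its call without Scrambled replicate 3 (0.27, adjusted p = 0.0588). Genes were eligible by small p against Scrambled, in libraries that the interaction also uses, so their signs are not independent of that choice. Over all 121 further protein factors, the interaction was called positive for 20 and negative for 0, beside 4.61% and 3.55% of all tested genes. For SNHG16, a host of small nucleolar RNAs, the value was -0.36. MXD4 had -1.11 and CDKN1A -0.79. TRIP12 itself had 0.38, a value that also holds its change in siOTUD5 against Scrambled. Compared directly, its remaining level was higher in siTRIP12+siOTUD5 than in siTRIP12 libraries, by 0.35 ± 0.082 (log2, SE, adjusted p = 0.00794).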

How the results depend on the processing

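No member reversed direction past the threshold in any alternative. Against Scrambled, 19 of 24 calls in siTRIP12+siOTUD5, 18 of 26 in siTRIP12 and 12 of 23 in siOTUD5 were kept in every alternative other than the test against a fold of 1.2. That test called 3 members in siTRIP12+siOTUD5, 2 in siTRIP12 and 1 in siOTUD5 against Scrambled. The shares of all tested genes it called were 7.71%, 9.28% and 3.67%, so by this test the members did not exceed all genes. It called 1 member in siTRIP12+siOTUD5 against siTRIP12, 0 in siTRIP12+siOTUD5 against siOTUD5, and 0 for the interaction. Beside these stood 1.91%, 0.749% and 1.31% of all tested genes. Most changes of members were thus too small to be shown to exceed 1.2-fold. Upper-quartile scaling gave a median of -0.14 in siTRIP12 and 20 lower and 1 higher members, with 2232 lower and 2964 higher among all tested genes, against 2827 and 2367 with TMM. Length offsets gave a median of -0.12 in siOTUD5, and so did they with the replicate block. With the compared groups alone, 10 members were called against siTRIP12 and 6 against siOTUD5, beside 20% and 18.9% of the genes tested in those fits. Against siOTUD5, 1 was called with upper-quartile scaling, with no filter and with the replicate block, beside 8.46%, 4.51% and 7.49% of all genes. With the block 1 member in place of 2 had a negative interaction, RRS1 being lost (-0.26, adjusted p = 0.0615), and no other total of called members changed by over 1.5 times. Leaving out each library gave 3 (without siTRIP12 replicate 2) to 15 (without Scrambled replicate 3) members against siTRIP12, 1 to 3 against siOTUD5, and 1 to 10 for the interaction. Outside Scrambled replicate 3, leaving out 1 library also ended these calls. In siTRIP12 they were those of FBL and NOP16 (siTRIP12 replicate 2), POLR1E (siTRIP12 replicate 3 or Scrambled replicate 1), UBTF and WDR12 (siTRIP12 replicate 1 or 2), and BYSL, RRP1B and NIP7 (several libraries each). In siOTUD5 they were those of SNU13 (siOTUD5 replicate 2), NOLC1 and NCL (siOTUD5 replicate 3), TCOF1 and LYAR (siOTUD5 replicate 1 or 2), BYSL and GNL3 (any siOTUD5 library), and NOP2, RRP1B and BOP1 (several). In siTRIP12+siOTUD5 they were those of NOLC1 (siTRIP12+siOTUD5 replicate 2), NOP14 (replicate 1), BOP1 (replicate 1 or 3), and FBL and DDX18 (several). Against siTRIP12 they were those of DKC1, TCOF1 and RRN3, and against siOTUD5 that of UBTF. For the interaction, all but NOLC1 were ended by at least 1 library, NOP56 only by siOTUD5 replicate 3. The causes were not tested. The samples share only replicate numbers: 2 of 12 libraries correlated best with their own number, and the block gave 23 lower and 1 higher in siTRIP12, 18 and 4 in siOTUD5, and 21 and 3 in siTRIP12+siOTUD5. With the block, 16.7% and 14.2%, 11.2% and 11.1%, and 15.5% and 14.4% of all tested genes were called, in the same order.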

Other observations

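Among the 13 exosome genes, EXOSC4 and EXOSC5, subunits of the ring, were both called lower in siTRIP12+siOTUD5. Of the single knockdowns, EXOSC4 was called in siTRIP12 only and EXOSC5 in siOTUD5 only. The other ring subunits EXOSC6, EXOSC7, EXOSC8 and EXOSC9 were called in none of the 3 comparisons with Scrambled. Whether the changes of EXOSC4 and EXOSC5 differed from each other was not tested. EXOSC4 fell by 0.39 ± 0.067 (log2, SE, adjusted p = 0.000284) in siTRIP12+siOTUD5 and by 0.47 ± 0.067 (log2, SE, adjusted p = 3.91e-05) in siTRIP12, and its log2 change in siOTUD5 was -0.031 ± 0.066 (SE, adjusted p = 0.787). EXOSC5 fell by 0.47 ± 0.082 (log2, SE, adjusted p = 0.000308) in siTRIP12+siOTUD5 and by 0.43 ± 0.081 (log2, SE, adjusted p = 0.00102) in siOTUD5, and its log2 change in siTRIP12 was -0.086 ± 0.081 (SE, adjusted p = 0.456). UTP14A, a processome subunit, had 70.4, 69.2 and 73.3 CPM in siTRIP12+siOTUD5 libraries, 64.8, 64.2 and 62.0 CPM in siTRIP12 libraries, 78.9, 85.2 and 80.3 CPM in siOTUD5 libraries, and 88.5, 91.2 and 94.2 CPM in Scrambled libraries. These 4 groups did not overlap.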
